A study of Mus musculus with 2 samples.

Results

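The genes of NF-κB and of its inhibitors were followed in RNA-seq gene counts from γδ T cells of mouse spleen. The set holds 10 of the 24091 genes in the deposited table, taken by symbol. It comprises the transcription factor subunits Nfkb1, Nfkb2, Rel, Rela and Relb, the IκB proteins Nfkbia, Nfkbiz, Nfkbid and Bcl3, and Tnfaip3, which encodes the ubiquitin-editing enzyme A20. There were 2 libraries, 1 of cells expanded with interleukin 2 (IL-2) and 1 of freshly isolated cells. Lymphocytes of this kind carry an antigen receptor of a γ and a δ chain in place of the more common α and β chains. Both libraries came from splenic cells purified by fluorescence-activated sorting. The expanded cells had been activated with anti-CD3 fixed to the plate and dissolved anti-CD28, and grown for 5 days in 100 U/ml of IL-2. The protocols carry the same wording for both libraries, and the freshly isolated cells were taken as uncultured from their treatment label. Stimulation, culture and IL-2 therefore differ together between the libraries and cannot be told apart. Strain, genotype, age and the number of mice were not given in the labels.

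The total count was 22204099 in the expanded library and 20379385 in the freshly isolated library. Each group is 1 library, so the spread between cultures or mice is unknown and no test was made. Levels are counts per 1000000 (CPM) of a library size scaled by TMM, a factor that sets the bulk of genes equal between libraries. Intervals are exact 95% intervals for counting error only. Genes of the CD3 chains and of T cell signalling were present in both libraries. These 7 markers stood at 237 to 743 CPM in the expanded library and at 257 to 1184 CPM in the freshly isolated library.

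NF-κB is a family of dimeric transcription factors that waits in the cytoplasm, held by IκB proteins. Signals from the antigen receptor, CD28 and TNF-type receptors activate the IκB kinases, IκB is degraded, and the dimers enter the nucleus. There they switch on, among many genes, those of their own inhibitors, so that the pathway limits itself. In T cells this system serves activation, survival and cytokine production.

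The expanded library held far less transcript of the inhibitors, while the subunits differed much less. Inhibitors is used here as a group name for the 4 IκB genes and Tnfaip3. The IκB proteins that act in the nucleus can also help to turn target genes on, so not all of the group are simple brakes. Of the 10 genes, 4 were at least 4-fold lower in the expanded library, all of them inhibitors (Tnfaip3, Nfkbiz, Nfkbia and Nfkbid), against 13.5% of the 11715 measured genes, those whose mean level reached 1 CPM. All 10 genes passed that minimum. At least 2-fold lower were 6 of the 10, which adds Rel and Relb, against 25.0% of all measured genes. None of the 10 was at least 2-fold higher, against 22.4% of measured genes, and none was at least 4-fold higher, against 8.92%. With a prior count of 2, the log2 fold of expanded over freshly isolated cells had a median of -1.88 over the 10 genes and of 0.04 over all measured genes. Summed over the 5 subunits, the level was 707 CPM in the expanded library and 778 CPM in the freshly isolated library. Summed over the 5 inhibitors, it was 161 CPM in the expanded library and 8206 CPM in the freshly isolated library, 51.1-fold lower (interval 49.4 to 52.9). Tnfaip3 supplied 6617 of those 8206 CPM. Without it, the 4 IκB genes summed to 117 CPM in the expanded library and 1590 CPM in the freshly isolated library, 13.6-fold lower (interval 13.1 to 14.2). The subunit sum was 1.10-fold lower (interval 1.08 to 1.13) with TMM, and 1.23-fold lower with scaling by total count. Nfkb1 supplied 468 of the 707 CPM in the expanded library and 298 of the 778 CPM in the freshly isolated library. The other subunits were each lower in the expanded library. Markers of other cell types and early response genes were lower in the expanded library as well. Macrophage markers summed to 27.5 CPM in the expanded library and 929 CPM in the freshly isolated library, and immediate early and dissociation genes to 1916 CPM in the expanded library and 28630 CPM in the freshly isolated library. Their part in the folds of the NF-κB genes was not tested, and in bulk RNA fewer cells of a type cannot be told apart from less RNA per cell.

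**Figure D1:**
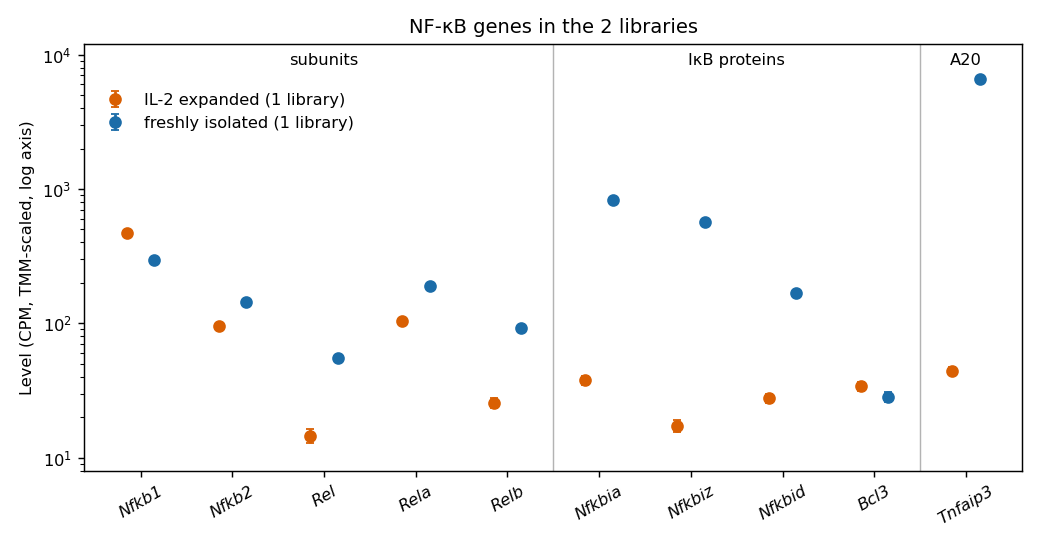
Level of each gene in CPM on a log axis in the IL-2 expanded library (orange, left) and the freshly isolated library (blue, right), 1 library each, with bars for the exact 95% Poisson interval of the count, mostly smaller than the symbols. Tnfaip3 is the gene furthest apart, at 44.0 CPM in expanded and 6617 CPM in freshly isolated cells, and Nfkb1 and Bcl3 are the genes with the higher point in the expanded library.

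Because NF-κB genes are known in mouse and human to be targets of NF-κB, the bases before their starts are shown with their κB sites. RefSeq promoters on build GRCm38.p6 were at hand for 7 of the 10 genes, and not for Nfkb1, Relb and Nfkbiz. In the 250 bases before each start the κB consensus decamer was searched on both strands. It matched before the start nearest to the deposited one in 4 of the 7 genes, namely Tnfaip3, Nfkbia, Rel and Nfkb2. It also matched before another start of Nfkbid and before further starts of Nfkb2. A match stood before at least 1 start in 5 of these 7 genes, compared with 5.51% of 9194 measured genes with a promoter in the table. The sequences below run 5′ to 3′ along the gene, in lower case, with matches in capitals. Matches on both strands overlap in Nfkb2 and in Rel. They show how close the matches lie to the start in the inhibitor furthest down, in the classical IκB gene and in a pair of subunits, beside Bcl3 with no match in these bases.
Tnfaip3, chr10:19015411-19015660, minus strand: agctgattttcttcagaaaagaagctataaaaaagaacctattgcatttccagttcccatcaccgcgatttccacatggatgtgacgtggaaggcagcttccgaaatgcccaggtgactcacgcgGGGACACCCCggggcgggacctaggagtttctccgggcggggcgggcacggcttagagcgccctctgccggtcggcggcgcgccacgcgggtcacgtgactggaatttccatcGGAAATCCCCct
Nfkbia, chr12:55492648-55492897, minus strand: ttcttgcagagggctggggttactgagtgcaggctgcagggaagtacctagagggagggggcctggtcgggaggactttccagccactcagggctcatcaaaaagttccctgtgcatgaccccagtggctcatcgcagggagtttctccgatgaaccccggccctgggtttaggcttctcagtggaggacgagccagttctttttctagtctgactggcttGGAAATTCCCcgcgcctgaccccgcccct
Rel, chr11:23770970-23771219, minus strand: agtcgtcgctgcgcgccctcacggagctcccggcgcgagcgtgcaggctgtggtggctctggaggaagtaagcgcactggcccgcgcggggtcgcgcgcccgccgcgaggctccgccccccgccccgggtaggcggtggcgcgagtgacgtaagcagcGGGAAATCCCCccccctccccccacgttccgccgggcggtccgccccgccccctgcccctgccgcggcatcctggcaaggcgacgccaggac
Nfkb2, chr19:46304487-46304736, plus strand: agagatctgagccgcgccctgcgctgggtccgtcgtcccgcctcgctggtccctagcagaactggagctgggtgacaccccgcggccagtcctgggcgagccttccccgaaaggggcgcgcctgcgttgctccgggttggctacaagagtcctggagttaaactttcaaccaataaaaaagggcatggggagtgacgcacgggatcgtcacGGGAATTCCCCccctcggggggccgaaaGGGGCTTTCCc
Bcl3, chr7:19822756-19823005, minus strand: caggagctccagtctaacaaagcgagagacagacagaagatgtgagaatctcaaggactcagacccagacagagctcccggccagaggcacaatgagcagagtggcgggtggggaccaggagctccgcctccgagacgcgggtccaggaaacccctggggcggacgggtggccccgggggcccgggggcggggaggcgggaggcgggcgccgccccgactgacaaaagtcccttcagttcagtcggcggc
Counted back from the start in negative positions, the nearest match began at -12 in Tnfaip3, -29 in Nfkbia, -91 in Rel and -11 in Nfkb2. The log2 folds were -7.23, -4.46, -1.92 and -0.59 in Tnfaip3, Nfkbia, Rel and Nfkb2, which have a match there, and -2.59, -0.88 and 0.26 in Nfkbid, Rela and Bcl3, which have none there. A relation between matches and folds was not tested. A match describes letters only and shows no binding.

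**Figure D2:**
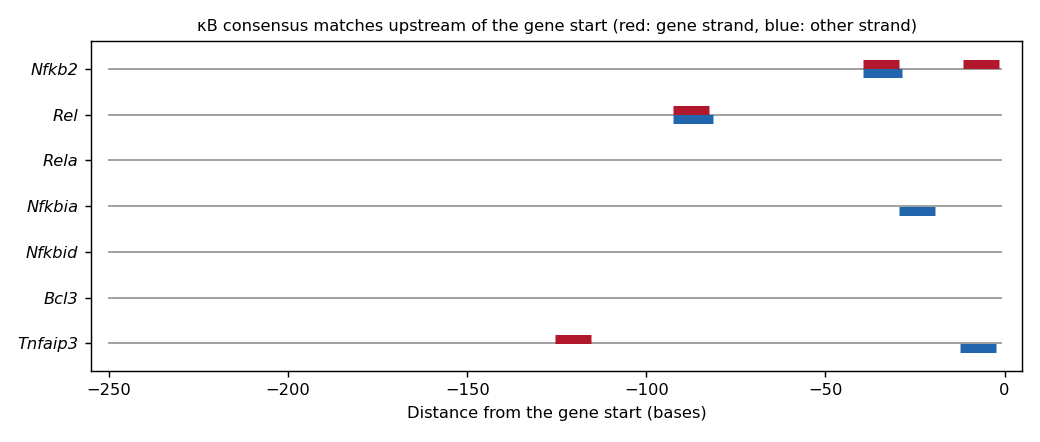
Position of κB consensus matches in the 250 bases before the start nearest to the deposited one, for the 7 genes with a promoter in the RefSeq table, with distance in bases on the horizontal axis, matches on the gene's strand in red and on the other strand in blue. Matches lie between position -125 and the start in Nfkb2, Rel, Nfkbia and Tnfaip3, and no match is drawn for Rela, Nfkbid and Bcl3.

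Tnfaip3 encodes A20, which removes and remodels the ubiquitin chains on signalling proteins upstream of the IκB kinases and so ends NF-κB signals. The gene lies on chromosome 10, 19000910 to 19015410, build GRCm38, minus strand. It had 925 counts in the expanded library, a level of 44.0 CPM, and 142424 counts in the freshly isolated library, a level of 6617 CPM. 150-fold lower in expanded cells (interval 141 to 161), a log2 fold of -7.23. By CPM it ranked 4975 among the genes of the expanded library and 1 in the freshly isolated library, where no gene had more counts. Counted from the lowest log2 fold, it held rank 102 of the 11715 measured genes.

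The IκB proteins differ in kind. Nfkbia encodes IκBα, the classical cytoplasmic inhibitor, which NF-κB itself induces and which takes the dimers back out of the nucleus. Nfkbia (chromosome 12, 55489409 to 55492647, minus strand) had 790 counts or 37.6 CPM in the expanded library and 17834 counts or 829 CPM in the freshly isolated library. Expanded cells thus had a 22.0-fold lower level (interval 20.5 to 23.7). The other 3 IκB proteins act mainly in the nucleus, where they adjust which target genes NF-κB turns on or off. Nfkbiz, which encodes IκBζ (chromosome 16, 55811377 to 55838641, minus strand), had 364 counts or 17.3 CPM in the expanded library and 12172 counts or 565 CPM in the freshly isolated library. Expanded cells thus had a 32.7-fold lower level (interval 29.4 to 36.3), and of the IκB genes it was the one furthest apart. Nfkbid, which encodes IκBNS (chromosome 7, 30421732 to 30428746, plus strand), had 581 counts or 27.6 CPM in the expanded library and 3604 counts or 167 CPM in the freshly isolated library. Expanded cells thus had a 6.06-fold lower level (interval 5.55 to 6.62).

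Bcl3 did not share this pattern. It encodes a nuclear IκB protein that works as a coactivator with dimers of the smaller NF-κB subunits (chromosome 7, 19808462 to 19822755, minus strand). It had 715 counts or 34.0 CPM in the expanded library and 610 counts or 28.3 CPM in the freshly isolated library, 1.20-fold higher in expanded cells (interval 1.08 to 1.34). Its log2 fold of 0.26 became 0.11 with scaling by total count. The ratio of Bcl3 to Nfkbid, with counts taken per kilobase, was 1.42 in the expanded library and 0.195 in the freshly isolated library. Such a ratio within a library does not depend on how libraries are scaled, and it was 7.27-fold higher in the expanded library (interval 6.31 to 8.38).

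Among the subunits, Nfkb1 was the one with the higher level in expanded cells. It encodes a precursor that is cut to a DNA-binding subunit without an activation domain, and the uncut precursor can itself hold dimers back. Nfkb1 (chromosome 3, 135584655 to 135691547, minus strand) had 9830 counts or 468 CPM in the expanded library and 6407 counts or 298 CPM in the freshly isolated library, 1.57-fold higher in expanded cells (interval 1.52 to 1.62). Rela encodes the subunit with an activation domain that pairs with the Nfkb1 product in the most common dimer. Rela (chromosome 19, 5637490 to 5648130, plus strand) had 2176 counts or 104 CPM in the expanded library and 4093 counts or 190 CPM in the freshly isolated library, 1.84-fold lower in expanded cells (interval 1.74 to 1.94). Its log2 fold of -0.88 reached -1.03, past 2-fold, with scaling by total count. Counted per kilobase, the ratio of Nfkb1 to Rela was 2.62 in the expanded library and 0.909 in the freshly isolated library, so that Nfkb1 stood above Rela in expanded cells. In freshly isolated cells the order turned with the gene length used, with Nfkb1 below Rela by the deposited lengths and above it, at 72.3 against 70.0 CPM per kilobase, by GENCODE M21 transcript lengths.

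Rel and Relb were the subunits furthest apart. Rel encodes c-Rel, a subunit of lymphocytes that is known for its role in T cell activation and cytokine genes. Rel (chromosome 11, 23741729 to 23770970, minus strand) had 305 counts or 14.5 CPM in the expanded library and 1188 counts or 55.2 CPM in the freshly isolated library, 3.80-fold lower in expanded cells (interval 3.35 to 4.33). The deposited span of Rel stops 4882 bases short of the end of the GENCODE M21 transcript, within its long 3′ UTR, and reads there may not have been counted in either library. Relb encodes the partner of the Nfkb2 product in the non-canonical pathway, which the receptors of lymphotoxin and CD40 open. Relb (chromosome 7, 19606222 to 19629438, minus strand) had 540 counts or 25.7 CPM in the expanded library and 1972 counts or 91.6 CPM in the freshly isolated library, 3.57-fold lower in expanded cells (interval 3.24 to 3.93). Nfkb2 (chromosome 19, 46304737 to 46312385, plus strand) encodes the other precursor subunit. It had 2003 counts or 95.3 CPM in the expanded library and 3079 counts or 143 CPM in the freshly isolated library, 1.50-fold lower in expanded cells (interval 1.42 to 1.59). The ratio of Relb to Nfkb2 per kilobase was 0.323 in the expanded library and 0.768 in the freshly isolated library.

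**Figure D3:**
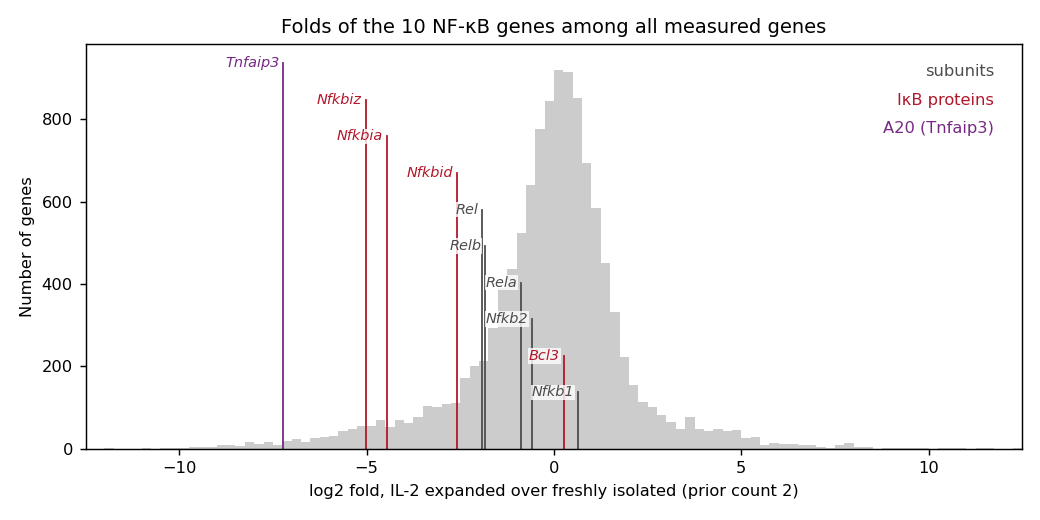
Number of genes (vertical axis) by log2 fold, IL-2 expanded over freshly isolated (horizontal axis), for the 11715 measured genes in grey, with a line for each NF-κB gene coloured by role. Line heights serve the labels only. Tnfaip3, Nfkbiz, Nfkbia and Nfkbid lie at -7.23 to -2.59, in the lower tail, and the subunits lie between -1.92 and 0.65.

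The make-up of the 10 transcripts differed between the libraries. Levels of different genes were compared as CPM per kilobase of the deposited gene length. On that scale the subunits made up 71.7% of the summed level in the expanded library and 9.08% in the freshly isolated library, and the inhibitors 28.3% in the expanded library and 90.9% in the freshly isolated library. Nfkb1 alone held 40.8% in the expanded library and 2.63% in the freshly isolated library. Tnfaip3 held 3.89% in the expanded library and 59.3% in the freshly isolated library, where Nfkbia held a further 21.7%.

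In the expanded library the order per kilobase was Nfkb1 (101 CPM per kilobase), Rela (38.4), Nfkb2 (24.4), Nfkbia (23.9), Bcl3 (18.6), Nfkbid (13.2), Tnfaip3 (9.59), Relb (7.89), Rel (5.64) and Nfkbiz (4.48). In the freshly isolated library it was Tnfaip3 (1443 CPM per kilobase), Nfkbia (527), Nfkbiz (146), Nfkbid (79.7), Rela (70.5), Nfkb1 (64.0), Nfkb2 (36.6), Relb (28.1), Rel (21.4) and Bcl3 (15.5). Nfkbiz thus ranked 10 in the expanded library and 3 in the freshly isolated library. Of the 9 neighbouring pairs in each library, the pair of Nfkb2 and Nfkbia in the expanded library did not differ beyond counting error (ratio 1.02, interval 0.940 to 1.11). With GENCODE M21 transcript lengths instead, Rel stood last in both libraries. In the expanded library Nfkbiz then ranked 9, Relb (11.6 CPM per kilobase) stood above Tnfaip3 (9.95), and Nfkb2 (30.3) stood further above Nfkbia (23.8). In the freshly isolated library Nfkb1 stood above Rela and Bcl3 ranked 9. With these lengths the subunits made up 73.7% in the expanded library and 9.50% in the freshly isolated library.

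The balance of inhibitor to subunit was read from ratios of counts per kilobase within each library. The ratio of Nfkbia to Rela, an inhibitor and the subunit it mainly holds, was 0.623 in the expanded library and 7.47 in the freshly isolated library. The ratio was thus 12.0-fold lower in expanded cells (interval 11.0 to 13.1). The ratio of Nfkbia to Nfkb1 was 0.237 in the expanded library and 8.22 in the freshly isolated library. Between the feedback inhibitors, the ratio of Tnfaip3 to Nfkbia was 0.402 in the expanded library and 2.74 in the freshly isolated library, so that the A20 transcript stood below that of IκBα in expanded cells and above it in freshly isolated cells.

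**Figure D4:**
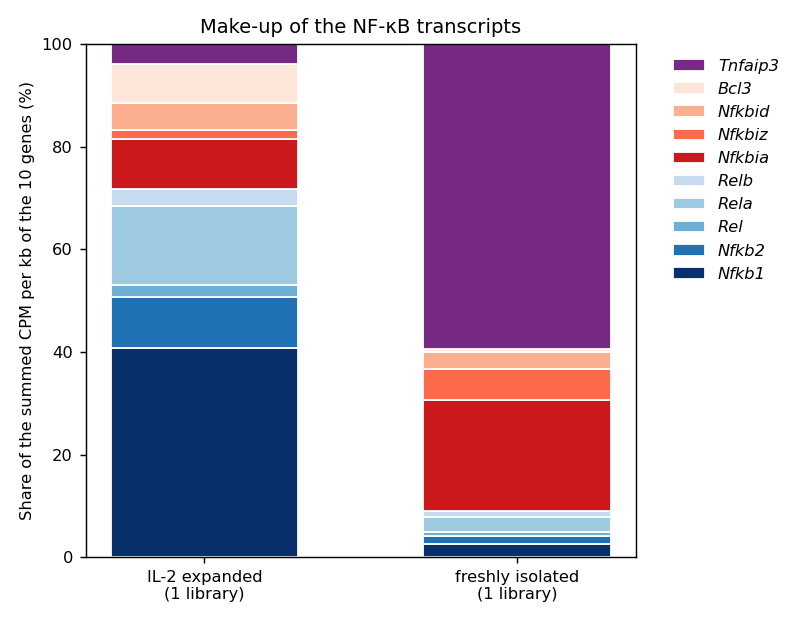
Share of each gene in the summed level of the 10 genes, in percent of CPM per kilobase of deposited length, in the IL-2 expanded library (left) and the freshly isolated library (right), 1 library each, with subunits in blue, IκB proteins in red and Tnfaip3 in purple. Blue fills 71.7% of the expanded bar and 9.08% of the freshly isolated bar.

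Beyond these 10 genes, further pathway genes, brakes included, were at least 2-fold lower about as often as other genes, and none was 2-fold higher. The lists differed, from 0 of 10 measured ubiquitin brakes to 7 of 13 genes of the route from TNF-type receptors at least 2-fold lower. Of 45 further measured genes in 6 pathway lists, 13 (28.9%) were at least 2-fold lower in the expanded library, beside 25.0% of all measured genes, and 5 (11.1%) were at least 4-fold lower, beside 13.5%. At least 2-fold higher were 0 of the 45, beside 22.4% of all measured genes. Their median log2 fold was -0.48. The IκB gene Nfkbie, also an NF-κB target, stood at 14.4 CPM in the expanded library and 70.4 CPM in the freshly isolated library, and Nfkbib, another classical IκB gene, at 43.0 CPM in the expanded library and 58.8 CPM in the freshly isolated library.

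Genes of the IκB kinase complex and of related kinases were split. At least 2-fold lower were 2 of these 5 genes, and none was 2-fold higher (median log2 fold -0.57), beside 25.0% lower and 22.4% higher among all measured genes. Ikbke, an IκB kinase relative, had 42.8 CPM in the expanded library and 208 CPM in the freshly isolated library. Ikbkb, the kinase of the canonical pathway, had 87.6 CPM in the expanded library and 298 CPM in the freshly isolated library, 3.41-fold lower (interval 3.23 to 3.59). Chuk, the kinase of the non-canonical pathway, had 123 CPM in the expanded library and 101 CPM in the freshly isolated library, and Tbk1, a related kinase of innate signalling, had 82.2 CPM in the expanded library and 106 CPM in the freshly isolated library.

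The route from the antigen receptor to the IκB kinases was close to level. Of its 12 genes, 10 lay within 2-fold and 2 were lower, beside 52.6% and 25.0% of all measured genes (median log2 fold -0.02). The lower genes were the adaptor Bcl10, at 50.9 CPM in the expanded library and 136 CPM in the freshly isolated library, and the kinase Prkcq, at 185 CPM in the expanded library and 397 CPM in the freshly isolated library. Furthest up were the paired ubiquitin-conjugating genes Ube2n, at 27.7 CPM in the expanded library and 15.3 CPM in the freshly isolated library, and Ube2v1, at 10.8 CPM in the expanded library and 6.46 CPM in the freshly isolated library. In the route from TNF-type receptors the median was -1.03, with 7 of 13 genes at least 2-fold lower and none 2-fold higher, beside the same 25.0% and 22.4%. Among the 7, the receptor genes Cd40 and Ltbr were below 1 CPM in the expanded library. They reached the minimum mean only through the freshly isolated library, so their direction was fixed by that minimum. Both also enter the counts of further pathway genes above. At a minimum of 5 CPM, which drops both, the median was -0.77. The signalling adaptor Traf5 had 6.52 CPM in the expanded library and 47.3 CPM in the freshly isolated library, and the receptor Cd40, which B cells and macrophages carry, had 0.333 CPM in the expanded library and 2.56 CPM in the freshly isolated library. Furthest up were the kinase Ripk1, at 152 CPM in the expanded library and 99.4 CPM in the freshly isolated library, and the adaptor Tradd, at 32.8 CPM in the expanded library and 22.3 CPM in the freshly isolated library.

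Other brakes that were measured, most of them ubiquitin-based, stayed within 2-fold, unlike Tnfaip3. All 10 measured genes of that list lay within 2-fold (median 0.33), beside 52.6% of all measured genes. The gene of the list left out, Tnip3, fell short of the minimum mean of 1 CPM. It had 0.476 CPM in the expanded library and 1.35 CPM in the freshly isolated library, more than 2-fold lower on few counts. Otulin, which cuts linear ubiquitin chains, had 153 CPM in the expanded library and 80.9 CPM in the freshly isolated library, and the A20 partner Rnf11 had 60.7 CPM in the expanded library and 34.7 CPM in the freshly isolated library. Tnip1, which encodes an A20-binding protein, had 80.7 CPM in the expanded library and 133 CPM in the freshly isolated library. Tnfaip8l2, listed as an inhibitor of immune receptor signalling and not for ubiquitin, had 19.5 CPM in the expanded library and 29.2 CPM in the freshly isolated library. Of 3 genes of the ligase that builds linear chains, 1 was at least 2-fold lower, beside 25.0% of all measured genes. That gene, Sharpin, had 46.8 CPM in the expanded library and 105 CPM in the freshly isolated library. Rnf31 had 49.5 CPM in the expanded library and 80.4 CPM in the freshly isolated library, and Rbck1 had 120 CPM in the expanded library and 171 CPM in the freshly isolated library.

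Regulators of RNA decay were lower together with the inhibitors. Some of these proteins are known in mouse to destroy Nfkbiz, Nfkbid or Rel transcripts. Past 2-fold, 6 of 7 genes were lower in the expanded library, 5 of these past 4-fold (median -3.87), beside 25.0% of all measured genes past 2-fold and 13.5% past 4-fold. Zfp36, which encodes tristetraprolin, had 58.2 CPM in the expanded library and 1752 CPM in the freshly isolated library. Zc3h12a, which encodes the endonuclease Regnase-1, had 14.1 CPM in the expanded library and 321 CPM in the freshly isolated library, 22.8-fold lower (interval 20.3 to 25.7). The Roquin genes were nearer to level, with Rc3h1 at 86.7 CPM in the expanded library and 181 CPM in the freshly isolated library and Rc3h2 at 55.0 CPM in the expanded library and 89.8 CPM in the freshly isolated library. The heptamer TATTTAT, the core of the site that tristetraprolin binds, occurred in the GENCODE M21 3′ UTR of Tnfaip3, Nfkbia and Rel, 2 times in each. In Rel the copies lie at 3′ UTR positions 2372 and 4414, beyond the deposited span. At least 1 copy thus stood in 3 of 10 genes, beside 28.7% of 11087 measured genes, and at least 2 copies in the same 3 of 10, beside 9.89% of measured genes. Those counts do not allow for 3′ UTR length. Per kilobase of 3′ UTR there were 0.502 copies in the 10 genes and 0.291 in measured genes.

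Known targets of NF-κB lay on both sides. Of 30 genes, 13 were at least 2-fold lower in the expanded library, 8 were at least 2-fold higher and 9 lay between (median -0.64). Among all measured genes 25.0% were lower and 22.4% higher by that measure. At least 4-fold lower were 12 of the 30 targets and at least 4-fold higher 6, beside 13.5% and 8.92% of all measured genes. Among the 12, Il1b, Cd83, Cxcl2, Ptgs2 and Cd40 were below 1 CPM in the expanded library. They reached the minimum mean only through the freshly isolated library, so their direction was fixed by that minimum. No target was below 1 CPM in the freshly isolated library. The summed level of the targets was 3475 CPM in the expanded library and 3565 CPM in the freshly isolated library. Il2ra alone supplied 1913 of the 3475 CPM in the expanded library and 43.7 of the 3565 CPM in the freshly isolated library. Several stand in another list too. Furthest up were Il2ra, the high-affinity IL-2 receptor chain, at 1913 CPM in the expanded library and 43.7 CPM in the freshly isolated library, and the cytokine Csf2, at 38.9 CPM in the expanded library and 1.81 CPM in the freshly isolated library. Furthest down were Il1b, a cytokine of myeloid cells, with 0 counts in the expanded library and 69.3 CPM in the freshly isolated library, at least 485-fold lower against a floor of 3 counts, and Cd83, a marker of activated dendritic and B cells, at 0.333 CPM in the expanded library and 105 CPM in the freshly isolated library. At 0 counts, a level of up to 0.143 CPM remained possible in the expanded library.

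**Figure D5:**
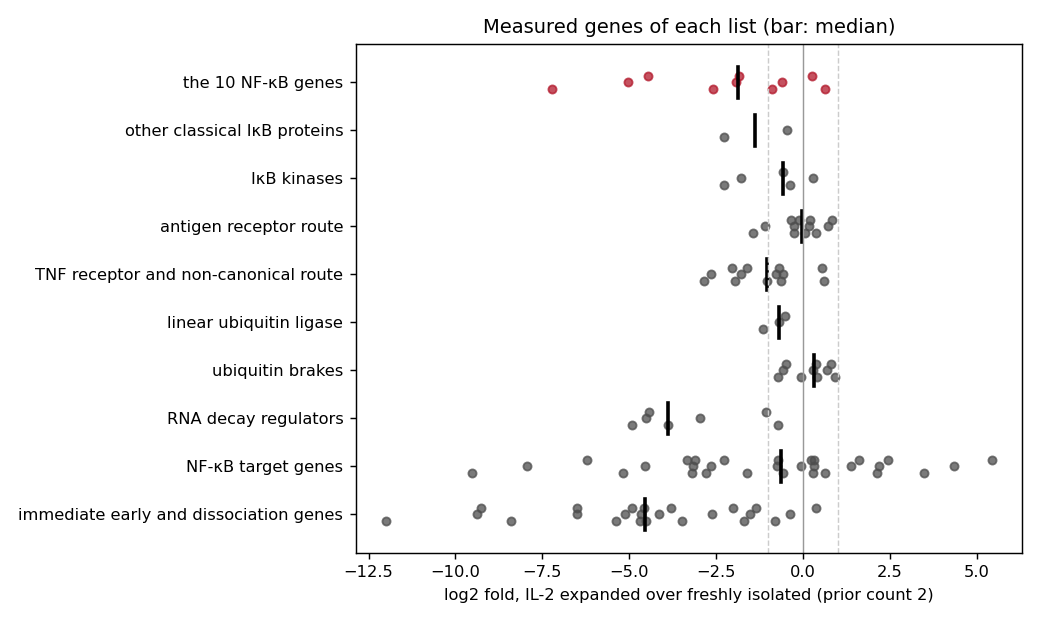
Log2 fold, IL-2 expanded over freshly isolated, of each measured gene by list, with a black bar at the median and dashed lines at 2-fold. The antigen receptor route and the ubiquitin brakes centre near 0, at -0.02 and 0.33, while the RNA decay regulators (-3.87) and the immediate early and dissociation genes (-4.54) centre far to the left and the NF-κB targets spread to both sides.

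Early response transcripts differed in the same direction as the inhibitors. Of 24 immediate early and tissue dissociation genes, which respond within minutes to stimulation and also to cell isolation, 21 were at least 2-fold lower in the expanded library, 18 of them at least 4-fold (median -4.54), beside 25.0% and 13.5% of all measured genes. Fosb, Hspa1a and Hspa1b were below 1 CPM in the expanded library and reached the minimum mean only through the other library. Their direction was thus fixed by that minimum. The summed level of the 24 genes was 1916 CPM in the expanded library and 28630 CPM in the freshly isolated library. The AP-1 gene Fosb had 0.666 CPM in the expanded library and 3101 CPM in the freshly isolated library, and Fos had 3.23 CPM in the expanded library and 2237 CPM in the freshly isolated library. Egr1, the early response factor, had 297 CPM in the expanded library and 388 CPM in the freshly isolated library, and Egr3 had 30.4 CPM in the expanded library and 23.3 CPM in the freshly isolated library.

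Most markers of cells other than T cells were also lower, with the neutrophil gene Ly6g as an exception. Beside the counts below, 25.0% of all measured genes were at least 2-fold lower. Most of the lower markers were below 1 CPM in the expanded library. They reached the minimum mean of 1 CPM only through the freshly isolated library, so their direction was fixed by that minimum. The counts of lower markers therefore only describe the libraries. Of 15 macrophage markers, 14 were at least 2-fold lower, with a summed level of 27.5 CPM in the expanded library and 929 CPM in the freshly isolated library, and 8 of them, including Vcam1, Lyz2 and the C1q genes, had 0 counts in the expanded library. All 7 measured of 9 B cell markers were at least 2-fold lower, with a summed level over the 9 of 3.71 CPM in the expanded library and 140 CPM in the freshly isolated library, and 6 of the 9, including Cd79a and Ms4a1, had 0 counts in the expanded library. The 7 dendritic cell markers summed to 9.99 CPM in the expanded library and 938 CPM in the freshly isolated library. All 5 measured markers were lower, and Flt3 and Siglech had 0 counts in the expanded library. The sum in the freshly isolated library came mostly from Cd74 (582 CPM), H2-Aa (227 CPM) and Itgax (120 CPM), while Flt3 had 6.46 CPM there. How far this sum reflects dendritic cells was not tested. Macrophages, dendritic cells and B cells also express NF-κB genes, and their share in the levels of these genes was not tested. The 3 erythroid markers in the table were at 0 counts in the expanded library and summed to 68.2 CPM in the freshly isolated library. The 4 markers of αβ T cells summed to 10.1 CPM in the expanded library and 31.8 CPM in the freshly isolated library, and the 5 neutrophil markers to 17.8 CPM in the expanded library, all from Ly6g, and 1.25 CPM in the freshly isolated library, where Ly6g had 0 counts. Of the αβ T cell markers, Cd8a was higher in the expanded library and the other 3 were lower.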

How the data were processed

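Read counts per gene, whole numbers and not normalised, were deposited by the authors for 2 libraries, with a gene length in kilobases. The submitters' processing notes name HTSeq 0.6.0, STAR 2.6.0, edgeR 3.28.1 and bcl2fastq 2.18.0.12, on builds mm10 and GRCm38. The sources used here give no settings, annotation or use of strand, so reads of overlapping genes cannot be told apart. The deposited spans of Nfkb2 and Psd overlap by 299 bases (Psd had 1 count in the expanded and 41 in the freshly isolated library). Nfkbiz lies within the span listed for Btg3, which had 23 counts in the expanded and 52 in the freshly isolated library, and Nfkb2 also lies within that of Gm38437, at 0 counts in both.

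Libraries were scaled with TMM (edgeR 4.0.16, R 4.3.3; factors 0.947 for the expanded and 1.06 for the freshly isolated library). Log2 folds use a prior count of 2, and folds printed for a gene are plain CPM ratios with an exact Clopper-Pearson 95% interval (SciPy 1.17.1). Ratios between genes carry an exact conditional interval. No molecular identifiers are described, and reads copied by PCR are not separate molecules, which means that intervals and the floor of 3 counts reflect counting error alone. One count equals 0.0476 CPM in the expanded and 0.0465 CPM in the freshly isolated library. The 11715 genes whose mean reached 1 CPM were compared, by size of fold only. The calculation was tested on simulated data.

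The 10 genes and the 17 lists were chosen with earlier results of these data known. The text names the 10 genes and, from each pathway list, the 2 measured genes at each end of the log2 folds. Marker genes, Ltbr, Tnip3, Cxcl2, Ptgs2, Hspa1a, Hspa1b, Btg3, Psd and Gm38437 fall outside that rule and were chosen after their values were seen. Alternatives were 4 other scalings (one with DESeq2 1.42.0 size factors), prior counts of 0.5 and 5, other filters on low counts and, added after the data were seen, TMM on genes averaging 10 CPM or more and GENCODE M21 transcript lengths.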

Additional observations from a re-analysis of the deposited data

How the results depend on the processing

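All 70 recomputed folds of the 10 genes (7 alternatives each) kept their direction, and 53 stayed within the counting interval. Genes at least 4-fold lower numbered 4, or 5 (adding Rel) with scaling by total count and with TMM on genes of at least 10 CPM, where Rela made those at least 2-fold lower 7 in place of 6. None was 2-fold higher under these 7 alternatives. The median of the 10 genes ranged from -2.03 to -1.87. Scaling by total count shifted the median of all measured genes by -0.16, and TMM on genes of at least 10 CPM by -0.14, the latter chosen after seeing the data. With scaling by total count, list medians were -0.73 (IκB kinases), -0.18 (antigen receptor route), -1.19 (TNF receptor route), -0.86 (linear ubiquitin ligase), 0.18 (ubiquitin brakes), -0.79 (NF-κB targets) and -4.70 (immediate early and dissociation genes). With upper quartile scaling they were -0.09 for the antigen receptor route and -4.61 for the immediate early genes. With totals that leave out each library's 50 most abundant genes they were -0.10 (antigen receptor route), 0.22 (ubiquitin brakes), -0.72 (NF-κB targets) and -4.62 (immediate early genes). With a minimum of 5 CPM the TNF receptor route stood at -0.77, because Cd40 and Ltbr, both lower, drop out. The shares of all measured genes past 2-fold or 4-fold stayed within 1.5 times their values, with 9.92 to 14.8% at least 4-fold lower. No paired analysis was possible because there was 1 library per group. For the same reason no library could be left out. Depth was not limiting for the 10 genes, whose lowest count was 305, but the spread between mice or cultures was not measured.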
